A study of Homo sapiens with 14 samples.

Results

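The genes described here encode lysosomal enzymes and membrane proteins. They are 34 genes of 22919 gene symbols shared by both deposited tables, chosen by name from the known contents of the lysosome, and all 34 were found in both tables. They fall into 5 role groups: 8 proteases, 9 glycosidases, 4 sulfatases, 7 lipid hydrolases and lipid carriers, and 6 membrane proteins. The rule goes by gene name and known role, but the list was drawn up with earlier results of these data known.

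The study measured poly(A) RNA by RNA sequencing in U2OS cells, a human osteosarcoma line, after treatment with 9 compounds or with DMSO, the solvent. Its title places the question in the relation between inhibition of H3K4 demethylation and autophagy. Both replicates were present for 2-PCPA (1 mM, 12 h), an inhibitor of lysine-specific demethylases of the LSD1 family, for GSK343 (10 μM, 24 h), an inhibitor of the H3K27 methyltransferase EZH2, and for rapamycin (5 μM, 24 h), an inhibitor of the kinase complex mTORC1. A single library each was present for BIX-01294 (5 μM, 12 h), an inhibitor of the H3K9 methyltransferase G9a, BRD4770 (20 μM, 24 h), described as a G9a inhibitor too, GSK-J4 (20 μM, 12 h), an inhibitor of H3K27 demethylases, the histone deacetylase inhibitors VPA (20 μM, 24 h) and SAHA (1 μM, 24 h), and UNC1215 (50 μM, 24 h), a ligand of the methyl-lysine reader L3MBTL3. The DMSO group had 2 libraries, with DMSO at 0.5% by volume and no duration in the labels. All groups were the same cell line grown in RPMI medium, a single tumour line. Nothing in the labels states that replicates came from different cultures; the p-values given measure only the spread between these libraries, which may be technical.

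The lysosome is the acidic compartment in which cells break down material delivered by endocytosis and autophagy. Soluble hydrolases are made in the endoplasmic reticulum, tagged with mannose 6-phosphate in the Golgi apparatus and sorted to lysosomes, where they cleave proteins, glycans, sulfated sugars or lipids. Membrane glycoproteins line the compartment and carry its transporters and channels. Many of these genes share an E-box with the letters TCACGTG near their start, which transcription factors of the TFEB family bind, and mTORC1 is known to hold TFEB in the cytoplasm.

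Values were FPKM (fragments per kilobase of transcript scaled to the mapped fragments of the library) as the authors deposited them, in a table of 10 libraries for replicate 1 and a table of 4 libraries for replicate 2. The tables were made separately, so every difference was taken within a table, on the log2(FPKM + 1) scale, which understates the change of low genes. FPKM holds no counts and absolute depth is unknown; depth relative to the DMSO library of the same table was estimated at 0.555 to 1.25 in replicate 1 and 0.676 to 0.809 in replicate 2. The 2-PCPA library of replicate 1 stood apart from the others: 28% of 375 olfactory receptor genes had a value above 0 there, against 2.4% to 6.4% in the other 9 libraries of that table, and its FPKM values summed to 291956, against 456039 to 531006. Of 8 mesenchymal and bone markers, 5 were at 1 FPKM or more in the DMSO library of replicate 1 and 6 in that of replicate 2; their sums were 700.2 to 1437 FPKM over the replicate 1 libraries and 1309 to 1699 FPKM over those of replicate 2, and TWIST1 was at 0 throughout. Sums over 5 blood cell markers stayed at or under 0.793 FPKM and over 2 endothelial markers at or under 0.204 FPKM, with CD3E at 0 in all libraries. Sums over 3 epithelial markers were 0.519 to 1.93 FPKM in replicate 1 and 1.63 to 3.55 FPKM in replicate 2. Fewer cells of a type and less RNA per cell cannot be told apart in such bulk samples.

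In DMSO the genes covered a wide range of levels, and 33 of 34 were at 1 FPKM or more in both libraries. The tetraspanin CD63 stood first with 299.8 and 356 FPKM in replicates 1 and 2, ahead of PSAP, the precursor of the saposins that present sphingolipids to their hydrolases, with 297 and 343 FPKM, and NPC2, the soluble cholesterol carrier, with 205 and 234 FPKM. Within each table these 3 kept the same order, and LAMP1, an abundant glycoprotein of the limiting membrane (112 and 151 FPKM), and the carboxypeptidase CTSZ (112 and 128 FPKM) were the others at 100 FPKM or more in both. CD63 and PSAP differed by less in each table than CD63 did between the tables, which were scaled separately. At the low end, under 5 FPKM in both libraries, were CTSF, a cysteine protease (1.35 and 3.40 FPKM), NAGLU, which removes N-acetylglucosamine from heparan sulfate (3.33 and 3.28 FPKM), IDUA, which removes iduronic acid (1.48 and 1.96 FPKM), and CTSK, the collagen-degrading protease of osteoclasts (0.625 and 0.598 FPKM). CTSK was below the filter, a mean of 1 FPKM over the 8 libraries of the test, so 33 genes were tested. GUSB shares sequence with expressed pseudogenes and IDS with a pseudogene, so their levels are uncertain. The exons of 12 of the 34 overlap those of another coding gene in GENCODE 29, 8 of them on the opposite strand (CTSA, IDUA, SGSH, GALNS, LIPA, PPT1, NPC2 and CLN3); since read strand is not given, these levels may hold reads of the partner. In the replicate 2 table GLB1 had the same values as TMPPE, a gene that overlaps it on the same strand, and NPC2 the same values as MIR4709, so those GLB1 and NPC2 values cannot be assigned to 1 gene.

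Promoter sequence was at hand for 23 of the 34 genes in a RefSeq table (build GRCh38.p14) of windows from 250 bases before to 50 bases after each gene's start; LGMN, PSAP, NAGLU, LAMP2, ASAH1, SGSH, ARSA, CTSB, MANBA, HEXA and CTSK had no entry. Both strands were searched for TCACGTG and for CACGTG, the shorter letters that every TCACGTG contains. TCACGTG was found in the windows of 8 of the 23 genes (34.8%), against 7.30% of 9155 tested genes with a window, 4.49% of all 27305 genes in the table and 3.71% of its 35116 windows. CACGTG was found in 9 of the 23 (39.1%), against 12.8% of the tested genes and 8.77% of all genes. That many lysosomal genes share this E-box was known beforehand, so these shares describe the list and are no independent result. The 8 genes with TCACGTG were the proteases CTSA, CTSD and CTSF, the glycosidase GAA, the sulfatase GALNS and the membrane proteins LAMP1, CLN3 and CLCN7. Stretches around the matches are shown for 6 of them, those with the highest rapamycin values, 5′ to 3′ on the gene's strand, because several recur in the results that follow; capitals mark the letters TCACGTG or its reverse complement CACGTGA.
CLCN7 (chr16:1475025-1475100, minus strand): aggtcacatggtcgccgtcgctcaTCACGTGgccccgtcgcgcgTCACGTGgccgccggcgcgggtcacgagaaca
CTSF (chr11:66568699-66568754, minus strand): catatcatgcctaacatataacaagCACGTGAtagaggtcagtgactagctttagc
CTSD (chr11:1763944-1763999, minus strand): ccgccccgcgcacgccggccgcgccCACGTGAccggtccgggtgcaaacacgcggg
GAA (chr17:80101480-80101580, plus strand): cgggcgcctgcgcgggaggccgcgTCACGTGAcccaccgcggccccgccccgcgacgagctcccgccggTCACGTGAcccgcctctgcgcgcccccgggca
LAMP1 (chr13:113297022-113297268, plus strand): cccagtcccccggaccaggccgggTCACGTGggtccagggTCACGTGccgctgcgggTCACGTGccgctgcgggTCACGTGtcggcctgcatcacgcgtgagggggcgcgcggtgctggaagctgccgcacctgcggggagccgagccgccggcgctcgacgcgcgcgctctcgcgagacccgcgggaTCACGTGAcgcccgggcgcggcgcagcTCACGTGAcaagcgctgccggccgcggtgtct
CTSA (chr20:45891268-45891340, plus strand): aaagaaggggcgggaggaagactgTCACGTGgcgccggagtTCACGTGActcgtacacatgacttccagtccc
The number of matches differed between these genes: LAMP1 had 6, CLCN7, GAA and CTSA had 2 each, and CTSD and CTSF had 1 each. The letters CACGTG of the CLCN7 matches began 47 and 27 bases before the gene's start, that of CTSD 47 bases before it, and that of CTSF farther upstream, 123 bases before it. A match of letters is a description of the sequence; binding was not measured.

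Under rapamycin the listed genes lay mostly above DMSO, but no single gene passed the test. A further 31 lysosomal genes outside the list had a median of 0.0069 on the log2 scale, with 10 higher and 7 lower in both replicates. Of the 33 tested genes, 22 were higher in both replicates than DMSO, against 25.5% of the 12603 genes tested, and 6 were lower in both, against 37.1%. Their median difference was 0.28 in replicate 1 and 0.21 in replicate 2 on the log2 scale, against −0.05 and −0.03 for all genes tested. In limma with Benjamini-Hochberg adjustment, 0 of 33 were called, while 2 of all genes tested were (0.0159%); at an unadjusted p under 0.05 there were 3 (FUCA1, CLCN7 and NPC2) against 814 of all genes. That count was 16 of 33 with median centring, against 1720 of all genes, and 7 with TPM scaling, against 2085 of all genes.

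Among the proteases, 6 of 7 tested were higher in both rapamycin libraries. CTSD, the main aspartic protease of the lysosome, had 108 and 112 FPKM in the rapamycin libraries, against 58.5 and 83.2 FPKM in the DMSO libraries. The log2 fold change was 0.65 ± 0.32 (SE, n = 2 each; limma adjusted p = 0.757). CTSF had 4.27 and 5.57 FPKM in the rapamycin libraries, against 1.35 and 3.40 FPKM in the DMSO libraries, a log2 fold change of 0.87 ± 0.40. CTSF was higher in both tables, with the larger difference in replicate 1. LGMN, the asparaginyl endopeptidase, was the protease lower in both, at −0.045, with 25.4 and 30.4 FPKM in the rapamycin libraries, against 25.6 and 32.2 FPKM in the DMSO libraries.

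Of the 9 glycosidases, 6 were higher in both rapamycin libraries and 3 lower in both. FUCA1, which removes fucose from glycoproteins, had 13.9 and 12.6 FPKM in the rapamycin libraries, against 6.65 and 6.68 FPKM in the DMSO libraries. Both tables gave nearly the same difference, and the log2 fold change of 0.89 ± 0.20 had the smallest unadjusted p of the 33 genes, 0.00164, with a limma adjusted p of 0.546. GAA, the acid alpha-glucosidase that degrades glycogen, had 20.7 and 18.3 FPKM in the rapamycin libraries, against 10.7 and 14.7 FPKM in the DMSO libraries, a log2 fold change of 0.59 ± 0.34, most of it from replicate 1. The 3 on the other side were small: GLA, alpha-galactosidase A (−0.14), MANBA, beta-mannosidase (−0.11), and GLB1, beta-galactosidase (−0.014). GLA had 19.9 and 19.0 FPKM in the rapamycin libraries, against 21.4 and 21.7 FPKM in the DMSO libraries. MANBA had 3.57 and 4.64 FPKM in the rapamycin libraries, against 3.96 and 5.07 FPKM in the DMSO libraries, and GLB1 had 17.4 and 24.0 FPKM in the rapamycin libraries, against 17.6 and 24.3 FPKM in the DMSO libraries. For these 3 the difference was within its standard error, and with median centring GLB1 and the protease LGMN turned positive.

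All 4 sulfatases were higher in both rapamycin libraries, with log2 fold changes of 0.17 to 0.58 and a median of 0.18. The lipid group was mixed: 3 of 7 were higher in both, 1 lower in both, and the median was 0.050. NPC2 had 352 and 393 FPKM in the rapamycin libraries, against 205 and 234 FPKM in the DMSO libraries, a log2 fold change of 0.76 ± 0.28 (limma adjusted p = 0.737). PSAP had 364 and 412 FPKM in the rapamycin libraries, against 297 and 343 FPKM in the DMSO libraries, at 0.28. PPT1, the palmitoyl-protein thioesterase, was the one lower in both, with 61.3 and 60.8 FPKM in the rapamycin libraries, against 76.7 and 66.7 FPKM in the DMSO libraries and a log2 fold change of −0.23 ± 0.22.

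Among the 6 membrane proteins CLCN7, the chloride-proton exchanger of the lysosomal membrane, had the highest value. It had 21.2 and 23.6 FPKM in the rapamycin libraries, against 10.1 and 12.0 FPKM in the DMSO libraries, a log2 fold change of 0.96 ± 0.33 (limma adjusted p = 0.721). Both rapamycin libraries lay above the DMSO library of their table by about the same factor. LAMP1 had 164 and 173 FPKM in the rapamycin libraries, against 112 and 151 FPKM in the DMSO libraries (0.38), and CD63 had 329.5 and 509 FPKM in the rapamycin libraries, against 299.8 and 356 FPKM in the DMSO libraries (0.32). LAMP2, the partner glycoprotein of LAMP1, went the other way, with 31.9 and 35.0 FPKM in the rapamycin libraries, against 39.0 and 36.3 FPKM in the DMSO libraries (−0.17). Past 1.5-fold above DMSO in both replicates were 3 of the 33 genes, FUCA1, NPC2 and CLCN7, against 1.61% of all genes tested.

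**Figure D1:**
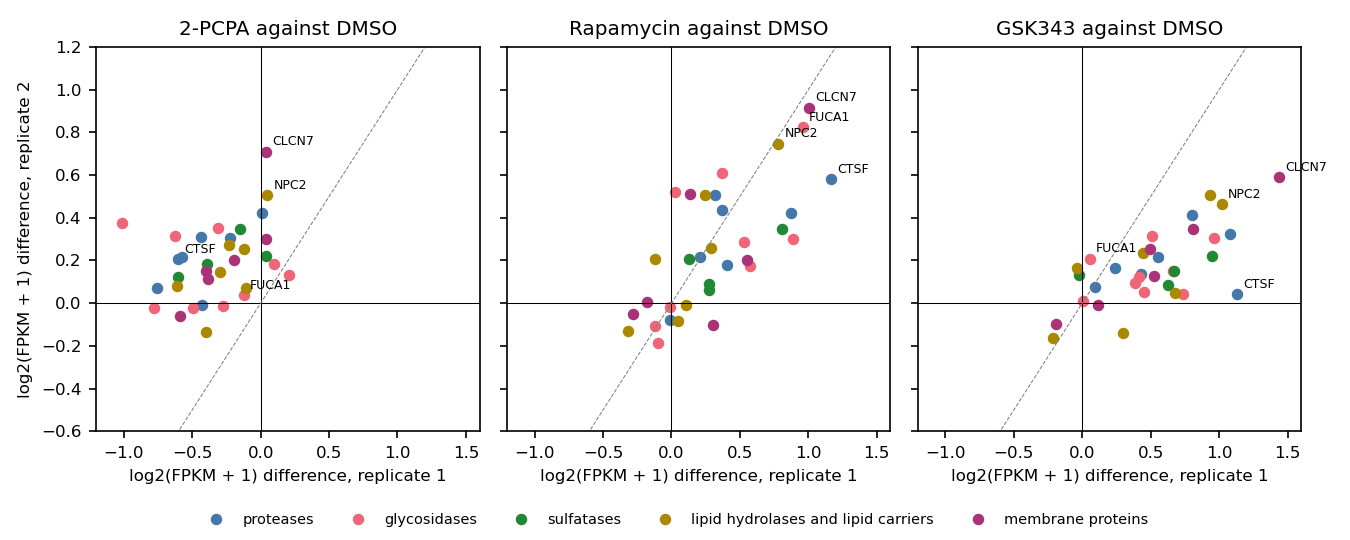
Log2 difference from DMSO in replicate 1 (x axis) and replicate 2 (y axis) for the tested genes under each compound with 2 replicates, on the log2(FPKM + 1) scale, coloured by role group, with the dashed line where both replicates are equal. For rapamycin 22 of 33 genes lie above 0 on both axes, for GSK343 27, and for 2-PCPA 7.

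Under GSK343 the genes again lay mostly above DMSO, with a larger difference in replicate 1 than in replicate 2. Of the 33, 27 were higher in both replicates, against 34.6% of all genes tested, and 2 were lower in both, against 26.7%. The median difference was 0.51 in replicate 1 and 0.15 in replicate 2, against 0.03 and 0.01 for all genes. In limma 0 of 33 were called, against 2 of all genes (0.0159%); 5 were at an unadjusted p under 0.05 (CLCN7, LIPA, NPC2, TPP1 and CLN3), against 532 of all genes. That count was 7 of 33 with median centring, against 1172 of the 12603 genes tested, and 8 with TPM scaling, against 1088 of them. Replicates differed: 14 of the 33 were past 1.5-fold higher in replicate 1, against 14.3% of all genes, and 1, CLCN7, in replicate 2, against 2.14%, and the median gap between the replicates was 0.39 for the lysosomal genes and 0.28 for all genes.

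All 7 tested proteases and all 9 glycosidases were higher in both GSK343 libraries. CTSD had 125 and 105 FPKM in the GSK343 libraries, against 58.5 and 83.2 FPKM in the DMSO libraries, a log2 fold change of 0.70 ± 0.32. TPP1, which cuts tripeptides from the ends of proteins, had 41.3 and 28.3 FPKM in the GSK343 libraries, against 23.2 and 21.0 FPKM in the DMSO libraries (0.61 ± 0.25). GAA had 21.8 and 18.4 FPKM in the GSK343 libraries, against 10.7 and 14.7 FPKM in the DMSO libraries (0.63 ± 0.34). In each of these the replicate 1 difference was the larger. The sulfatases were higher in both libraries in 3 of 4 cases, with a median of 0.38. TRAPPC2L overlaps the sulfatase GALNS on the opposite strand. It had 61.0 and 50.9 FPKM in the GSK343 libraries, against 27.1 and 51.0 FPKM in the DMSO libraries. Whether its reads entered the GALNS values was not tested.

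In the lipid group 4 of 7 were higher in both GSK343 libraries. NPC2 had 416 and 323 FPKM in the GSK343 libraries, against 205 and 234 FPKM in the DMSO libraries (0.74 ± 0.28). LIPA, the acid lipase that hydrolyses cholesteryl esters and triglycerides, had 14.1 and 8.96 FPKM in the GSK343 libraries, against 6.92 and 6.0 FPKM in the DMSO libraries (0.72 ± 0.24). Both genes were higher in each table. PSAP had 405 and 404 FPKM in the GSK343 libraries, against 297 and 343 FPKM in the DMSO libraries (0.34), and PPT1 was lower in both, with 66.0 and 59.5 FPKM in the GSK343 libraries, against 76.7 and 66.7 FPKM in the DMSO libraries (−0.19). Of the membrane proteins, CLCN7 again came first, with 29.0 and 18.7 FPKM in the GSK343 libraries, against 10.1 and 12.0 FPKM in the DMSO libraries, a log2 fold change of 1.02 ± 0.33 (limma adjusted p = 0.949). SCARB2, the receptor that carries glucocerebrosidase to lysosomes, was lower in both, with 30.0 and 28.5 FPKM in the GSK343 libraries, against 34.3 and 30.5 FPKM in the DMSO libraries (−0.14). LAMP1 had 161 and 165 FPKM in the GSK343 libraries, against 112 and 151 FPKM in the DMSO libraries (0.32). CD63 had 422 and 424 FPKM in the GSK343 libraries, against 299.8 and 356 FPKM in the DMSO libraries (0.37), and LAMP2 had 42.3 and 36.1 FPKM in the GSK343 libraries, against 39.0 and 36.3 FPKM in the DMSO libraries (0.054), its replicates on opposite sides of DMSO, and turned to −0.027 under TPM scaling. Without the GSK343 library of replicate 1, CLCN7 was at 0.50, NPC2 at 0.39, LIPA at 0.40 and CTSD at 0.31, and without that of replicate 2 they were at 1.54, 1.09, 1.04 and 1.09. Rapamycin, GSK343 and 2-PCPA were set against the same DMSO libraries, so their values are not independent of each other.

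Under 2-PCPA the direction against DMSO differed between the replicates and with how the libraries were scaled. Under each scaling the median of the lysosomal genes lay above that of all genes. With FPKM as deposited, 7 of 33 were higher in both replicates, against 11.5% of all genes tested, and 6 were lower in both, against 42.2%; for the other 20 the replicates lay on opposite sides of DMSO. The median difference was −0.31 in replicate 1 and 0.18 in replicate 2, against −0.42 and 0.01 for all genes. In replicate 2 alone, without the library that stood apart, 27 of 33 were higher than DMSO, against 51.4% of all genes. In limma 0 of 33 were called, against 3 of all genes (0.0238%). At an unadjusted p under 0.05 there were 0 of the 33, against 943 of the 12603 genes tested. The count of the 33 at that p, in either direction, was 5 with median centring, against 1280 of all genes. It was 11 with TPM scaling, against 1342 of all genes. With median centring, 19 were higher in both, against 31% of all genes, and 4 lower in both, against 32.7%. With values rescaled to the same sum per library (TPM scaling), 25 were higher in both, against 45.7%, and 0 lower in both, against 17.8%. These scaled counts were added after the data were seen. The median of all genes in the fit was −0.20, and that of the lysosomal genes −0.08; with TPM scaling they were 0.10 and 0.25.

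CLCN7 had the highest value here too, with 10.4 and 20.3 FPKM in the 2-PCPA libraries, against 10.1 and 12.0 FPKM in the DMSO libraries (0.37 ± 0.33). NPC2 had 212 and 332 FPKM in the 2-PCPA libraries, against 205 and 234 FPKM in the DMSO libraries (0.28 ± 0.28). For both, nearly all of the difference lay in replicate 2. TPP1 (0.22), the membrane protein CLN3 (0.17), MANBA (0.17) and GLB1 (0.14) were the next among those higher in both. TPP1 had 23.4 and 28.5 FPKM in the 2-PCPA libraries, against 23.2 and 21.0 FPKM in the DMSO libraries. CLN3 had 8.74 and 13.2 FPKM in the 2-PCPA libraries, against 8.46 and 10.5 FPKM in the DMSO libraries. MANBA had 4.72 and 5.66 FPKM in the 2-PCPA libraries, against 3.96 and 5.07 FPKM in the DMSO libraries, and GLB1 had 18.9 and 27.7 FPKM in the 2-PCPA libraries, against 17.6 and 24.3 FPKM in the DMSO libraries.

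The genes lower in both 2-PCPA libraries were led by GAA, with 5.85 and 14.5 FPKM in the 2-PCPA libraries, against 10.7 and 14.7 FPKM in the DMSO libraries (−0.40 ± 0.34). LAMP2 had 25.5 and 34.8 FPKM in the 2-PCPA libraries, against 39.0 and 36.3 FPKM in the DMSO libraries (−0.33 ± 0.24). The difference of GAA lay almost wholly in replicate 1, and relative to the median of all genes it was −0.19. SMPD1, acid sphingomyelinase, had 8.39 and 14.6 FPKM in the 2-PCPA libraries, against 11.4 and 16.1 FPKM in the DMSO libraries (−0.27). HEXA, the alpha subunit of beta-hexosaminidase A, had 28.8 and 39.7 FPKM in the 2-PCPA libraries, against 40.9 and 40.4 FPKM in the DMSO libraries (−0.26), LGMN had 18.7 and 31.9 FPKM in the 2-PCPA libraries, against 25.6 and 32.2 FPKM in the DMSO libraries (−0.22), and GUSB, beta-glucuronidase, had 19.8 and 37.4 FPKM in the 2-PCPA libraries, against 24.2 and 37.7 FPKM in the DMSO libraries (−0.14). Under TPM scaling, LAMP2, SMPD1, HEXA, LGMN and GUSB turned to positive values of at most 0.21. The remaining genes given in every comparison had replicates on opposite sides of DMSO. CTSD had 50.1 and 103 FPKM in the 2-PCPA libraries, against 58.5 and 83.2 FPKM in the DMSO libraries, and LAMP1 had 97.5 and 173 FPKM in the 2-PCPA libraries, against 112 and 151 FPKM in the DMSO libraries. CD63 had 227 and 395 FPKM in the 2-PCPA libraries, against 299.8 and 356 FPKM in the DMSO libraries, and PSAP had 253 and 415 FPKM in the 2-PCPA libraries, against 297 and 343 FPKM in the DMSO libraries. Each of these 4 was below DMSO in replicate 1 and above it in replicate 2.

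**Figure D2:**
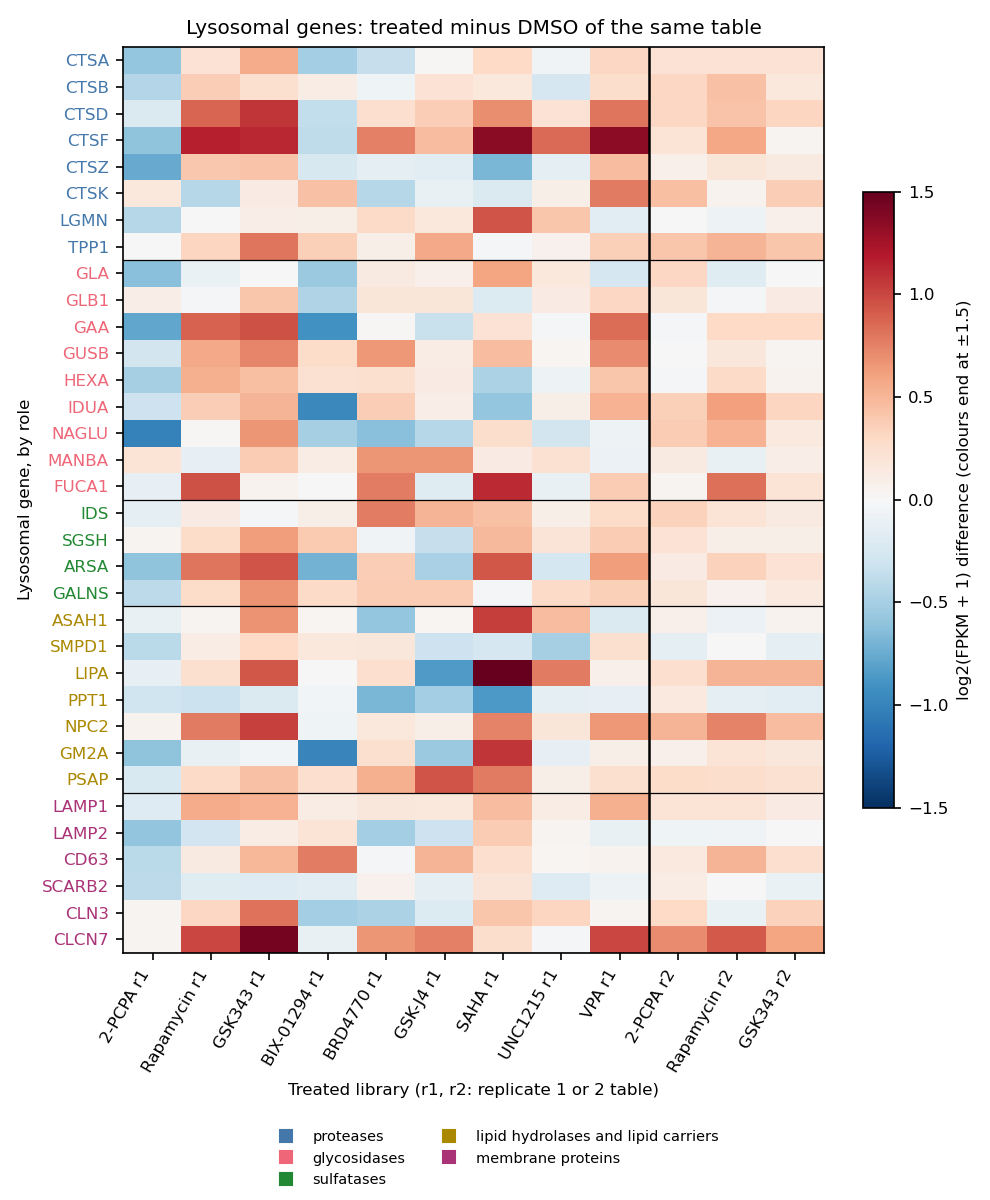
Log2 difference from the DMSO library of the same table for each of the 34 genes (down the page, by role group, CTSK included although untested) and each compound library (across, replicate 1 left of the line), on the log2(FPKM + 1) scale, with colours ending at ±1.5. The 2-PCPA library of replicate 1 is mostly below DMSO (median of the tested genes −0.31), and the GSK343 library of replicate 1 mostly above it (median 0.51).

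2-PCPA was also set against rapamycin, the compound known to induce autophagy; dose and duration differed (1 mM for 12 h, against 5 μM for 24 h), and cannot be told apart from the compound. Of the 33 genes, 3 were higher in both replicates of 2-PCPA, against 15.3% of all genes tested, and 19 were lower in both, against 37%. Under TPM scaling, added after the data were seen for these counts, 15 were higher in both, against 56.9%, and 7 lower in both, against 12.6%. The median was −0.53 in replicate 1 and −0.11 in replicate 2, against −0.34 and 0.04 for all genes. In limma 0 of 33 were called, against 6 of all genes (0.0476%), and 5 had an unadjusted p under 0.05 (FUCA1, GAA, CTSF, HEXA and ARSA), against 1483 of all genes. That count was 8 of 33 with median centring, against 2165 of the 12603 genes tested. It was 8 of 33 with TPM scaling, against 3291 of 12603, no larger a share than among all genes.

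FUCA1 had 6.02 and 6.89 FPKM in the 2-PCPA libraries, against 13.9 and 12.6 FPKM in the rapamycin libraries. It was lower in both tables by a similar amount, at −0.93 ± 0.20, with an unadjusted p of 0.00123 and a limma adjusted p of 0.246. It passed at a limma adjusted p of 0.0419 when small RNA and clone rows were left out of the fit. There 1 of the 33 was called, against 218 of 12235 genes. CTSF had 0.545 and 4.07 FPKM in the 2-PCPA libraries, against 4.27 and 5.57 FPKM in the rapamycin libraries (−1.07 ± 0.40). It passed at a limma adjusted p of 0.0421 when only the 2 groups were fitted. In that fit 1 of the 33 was called, against 389 of 12603 genes. GAA had 5.85 and 14.5 FPKM in the 2-PCPA libraries, against 20.7 and 18.3 FPKM in the rapamycin libraries (−0.99 ± 0.34). In CTSF and GAA the larger part lay in replicate 1, whose 2-PCPA library stood apart. ARSA, the arylsulfatase that acts on sulfatide, had 6.75 and 10.9 FPKM in the 2-PCPA libraries, against 19.6 and 12.9 FPKM in the rapamycin libraries (−0.82). HEXA had 28.8 and 39.7 FPKM in the 2-PCPA libraries, against 59.3 and 49.6 FPKM in the rapamycin libraries (−0.67), and CTSZ had 66.2 and 135 FPKM in the 2-PCPA libraries, against 149 and 146 FPKM in the rapamycin libraries (−0.63). The 3 higher in both were MANBA, with 4.72 and 5.66 FPKM in the 2-PCPA libraries, against 3.57 and 4.64 FPKM in the rapamycin libraries (0.28), GLB1 at 0.16 and PPT1 at 0.15. Of the genes given in every comparison, CTSD was at −0.61, CD63 at −0.45, LAMP1 at −0.37, PSAP at −0.26 and LAMP2 at −0.16. Without the 2-PCPA library of replicate 1, FUCA1 was at −0.86, while CTSF was at −0.39, GAA at −0.41 and CTSD at −0.14. LAMP1, LAMP2 and PSAP turned positive under TPM scaling.

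Each of the other 6 compounds had 1 library, set against the DMSO library of replicate 1, so these differences have no replicate check and no test; a gene is counted where it was past 1.5-fold on the log2(FPKM + 1) scale. SAHA had 11 of 33 on the higher side, against 19.1% of 12804 genes, and 2 on the lower side, against 11.8%. With TPM scaling there were 7 on the higher side, against 14.1%, and 4 on the lower side, against 21.6%. In the lipid group 5 of 7 were past 1.5-fold higher. LIPA had 26.8 FPKM in the SAHA library, against 6.92 FPKM in the DMSO library, a log2 difference of 1.81. CTSF had 5.01 FPKM in the SAHA library, against 1.35 FPKM in the DMSO library (1.36). FUCA1 had 15.6 FPKM in the SAHA library, against 6.65 FPKM in the DMSO library (1.12). GM2A, the activator that lifts GM2 ganglioside out of the membrane for HEXA, had 29.1 FPKM in the SAHA library, against 13.3 FPKM in the DMSO library (1.07). The other 7 on the higher side were ASAH1, NPC2, PSAP, LGMN, CTSD, GLA and ARSA. IFIT2, whose exons overlap those of LIPA on the opposite strand, was at 0.0662 FPKM in the SAHA library, against 0 in the DMSO library. On the lower side were PPT1, with 41.7 FPKM in the SAHA library, against 76.7 FPKM in the DMSO library (−0.86), and CTSZ (−0.68). CAP1, whose exons overlap those of PPT1 on the opposite strand, had 229 FPKM in the SAHA library, against 163 FPKM in the DMSO library.

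VPA had 7 genes past 1.5-fold higher, against 10.1% of all genes, and 0 lower, against 6.83%. CTSF had 4.94 FPKM in the VPA library, against 1.35 FPKM in the DMSO library (1.34). CLCN7 had 21.1 FPKM in the VPA library, against 10.1 FPKM in the DMSO library (1.00). GAA was at 0.83 and CTSD at 0.80, with GUSB, NPC2 and ARSA also past the mark. LIPA, the leading gene under SAHA, had 7.36 FPKM in the VPA library, against 6.92 FPKM in the DMSO library (0.078), a value given because the compounds share a target class and chosen after it was seen. BRD4770 had 6 higher, against 14.5%, and 2 lower, against 13.8%. IDS, iduronate sulfatase, had 39.0 FPKM in the BRD4770 library, against 22.4 FPKM in the DMSO library (0.77), and FUCA1 had 12.0 FPKM in the BRD4770 library, against 6.65 FPKM in the DMSO library (0.77). CTSF (0.76) and MANBA (0.66) followed, and PPT1 (−0.68) and NAGLU (−0.62) were on the lower side.

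GSK-J4 had 3 higher, against 19.1%, and 1 lower, against 16.4%. PSAP had 571 FPKM in the GSK-J4 library, against 297 FPKM in the DMSO library (0.94), its highest level in the replicate 1 table, and CLCN7 (0.76) and MANBA (0.66) were past the mark too. LIPA was the one lower, with 3.38 FPKM in the GSK-J4 library, against 6.92 FPKM in the DMSO library (−0.85). BIX-01294 had 1 higher, against 21.9%, and 4 lower, against 15.5%. The lower count was 9 with median centring, against 21.5% of all genes, and 10 with TPM scaling, against 22.9%. CD63 had 511 FPKM in the BIX-01294 library, against 299.8 FPKM in the DMSO library (0.77). GM2A (−0.99), IDUA (−0.97), GAA (−0.90) and ARSA (−0.71) were on the lower side. UNC1215 had 2 higher, against 6.26%, and 0 lower, against 4.09%: CTSF, with 3.23 FPKM in the UNC1215 library, against 1.35 FPKM in the DMSO library (0.85), and LIPA, with 12.6 FPKM in the UNC1215 library, against 6.92 FPKM in the DMSO library (0.78). Among these 6 compounds the median of the 33 genes ran from −0.01 for BIX-01294 to 0.38 for SAHA. All 6 were set against the same DMSO library, so their values are not independent of each other. The replicate 1 differences of rapamycin, GSK343 and 2-PCPA used that DMSO library too. CTSF, at 1.35 FPKM in that library, was at 3.40 FPKM in the DMSO library of replicate 2, which was scaled separately.

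**Figure D3:**
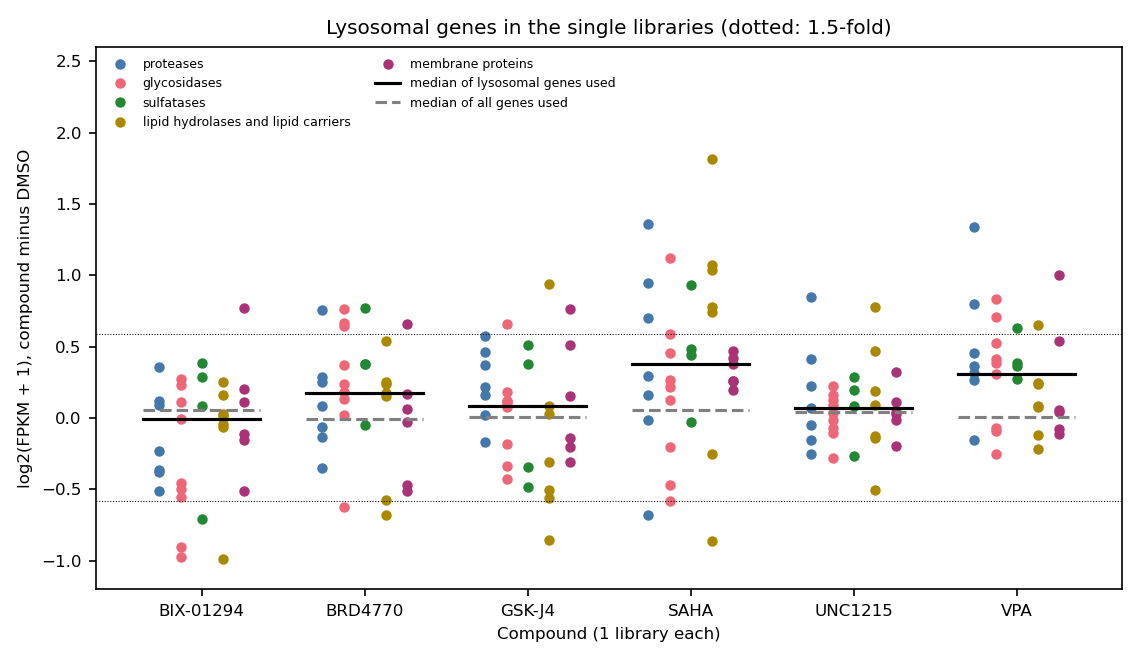
Log2 difference from the DMSO library of replicate 1 for the 33 genes used in each compound with 1 library, on the log2(FPKM + 1) scale; points are genes coloured by role group, black lines their medians, grey dashed lines the medians of all genes used, and dotted lines 1.5-fold. SAHA has 11 genes past the upper mark and VPA 7, and BIX-01294 has 4 past the lower one with FPKM as deposited.

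**Figure D4:**
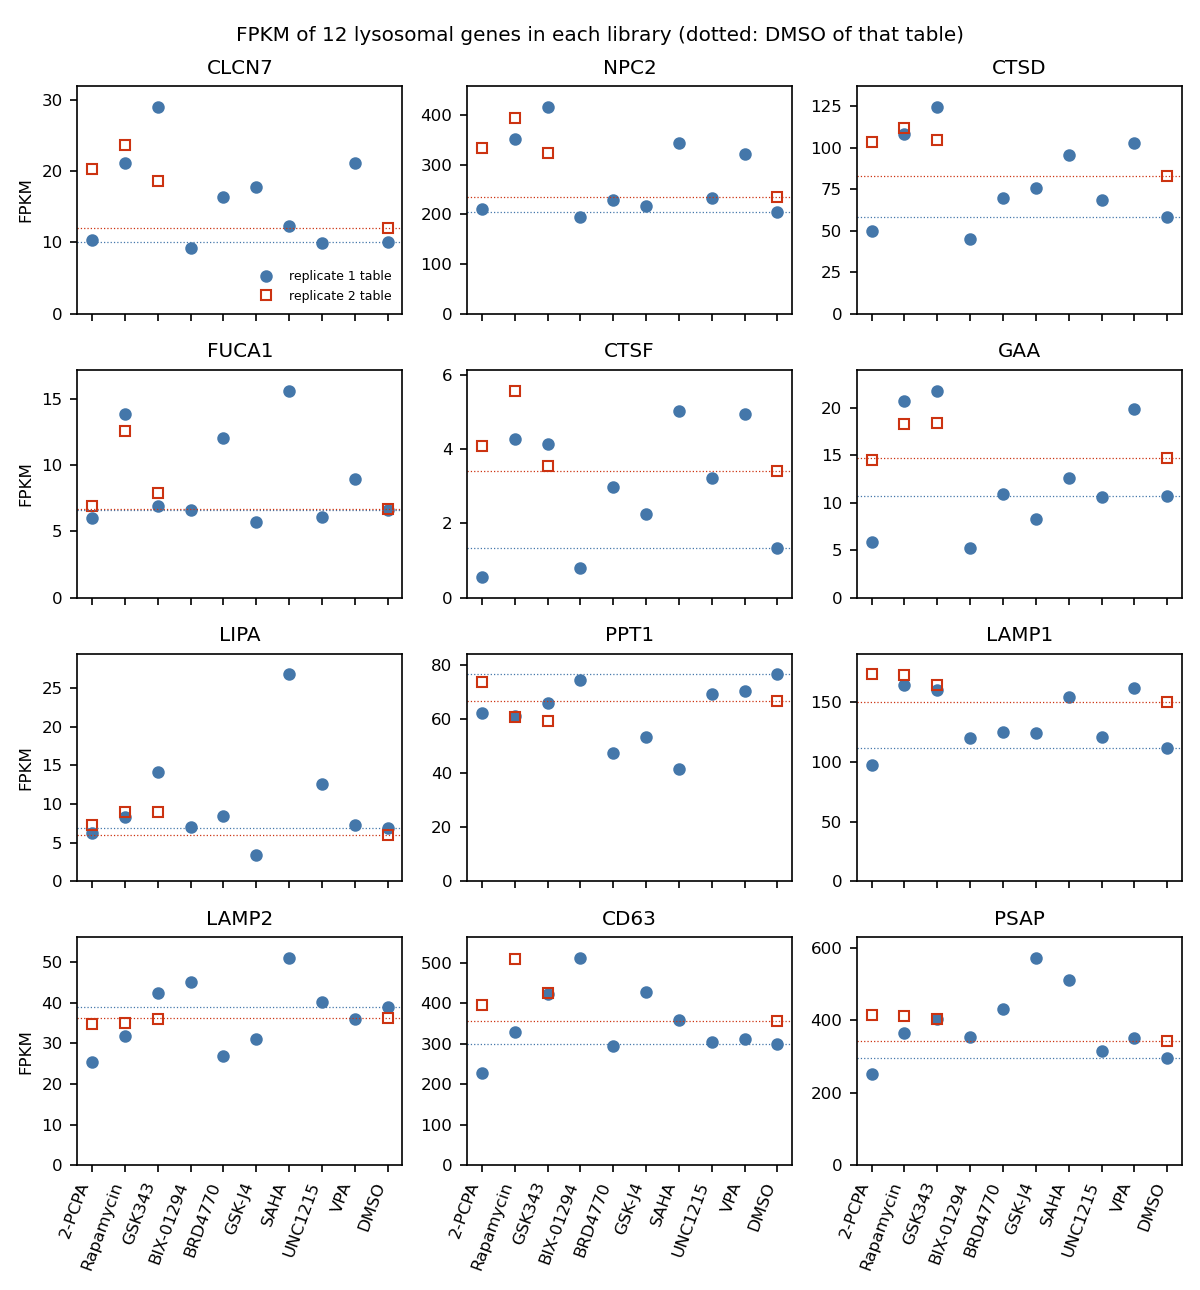
FPKM of 12 of the genes (1 panel each, linear axis from 0) in every library, with compounds along the x axis and DMSO at the right; filled circles are the replicate 1 table, open squares the replicate 2 table, and dotted lines the DMSO library of each table. CLCN7 lies at 21.2 and 23.6 FPKM under rapamycin, and LIPA has its highest level, 26.8 FPKM, under SAHA.

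Across the 10 libraries of replicate 1, GSK343 held the highest level of 14 of the 34 genes, against 11.8% of all genes used, and SAHA that of 9, against 18.4%. The 2-PCPA library held the lowest of 16, against 37.5% of all genes, and BIX-01294 that of 9, against 13.6%. The spread differed between genes: the highest library was 1.52 times the lowest for SCARB2 and 1.68 times for LAMP1, but 7.92 times for LIPA, 9.20 times for CTSF and 9.75 times for IDUA, of which CTSF and IDUA had low levels. The 34 genes summed to 1354 FPKM in the 2-PCPA library, 2428 in GSK343 and 2140 in rapamycin, against 1664 in DMSO. In replicate 2 the sums were 2277, 2252 and 2475 FPKM, against 1933 in DMSO. For 2-PCPA the sum lay below DMSO in replicate 1 and above it in replicate 2. As a share of all FPKM in the library, the genes took 0.464% in 2-PCPA and 0.365% in DMSO in replicate 1. In replicate 2 they took 0.330% in 2-PCPA and 0.264% in DMSO, so the 2-PCPA share was higher in both. Every other compound library also lay above DMSO, at 0.368% to 0.485% in replicate 1 and 0.301% to 0.305% in replicate 2.

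The genes with and without TCACGTG in the promoter window had these values. Under rapamycin the median log2 fold change was 0.48 for the 8 with it and 0.29 for the 15 without, and the ranges, 0.10 to 0.96 and −0.23 to 0.89, overlapped. Under GSK343 the medians were 0.58 and 0.27, and in the VPA library 0.67 and 0.27, again with overlapping ranges. Under 2-PCPA they lay close together, at −0.049 and −0.076. Among all tested genes under rapamycin, the medians were −0.05 for 668 with the letters and −0.06 for 8487 without. For the same genes they were 0.06 and 0.03 under GSK343, and −0.01 and 0 in the VPA library. The difference between the 2 sets of lysosomal genes was not tested. Under rapamycin 8 of 8 with the letters and 11 of 15 without were positive in the fit, and under GSK343 8 of 8 and 13 of 15; CLN3, among the 8, had rapamycin replicates on opposite sides of DMSO.

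**Figure D5:**
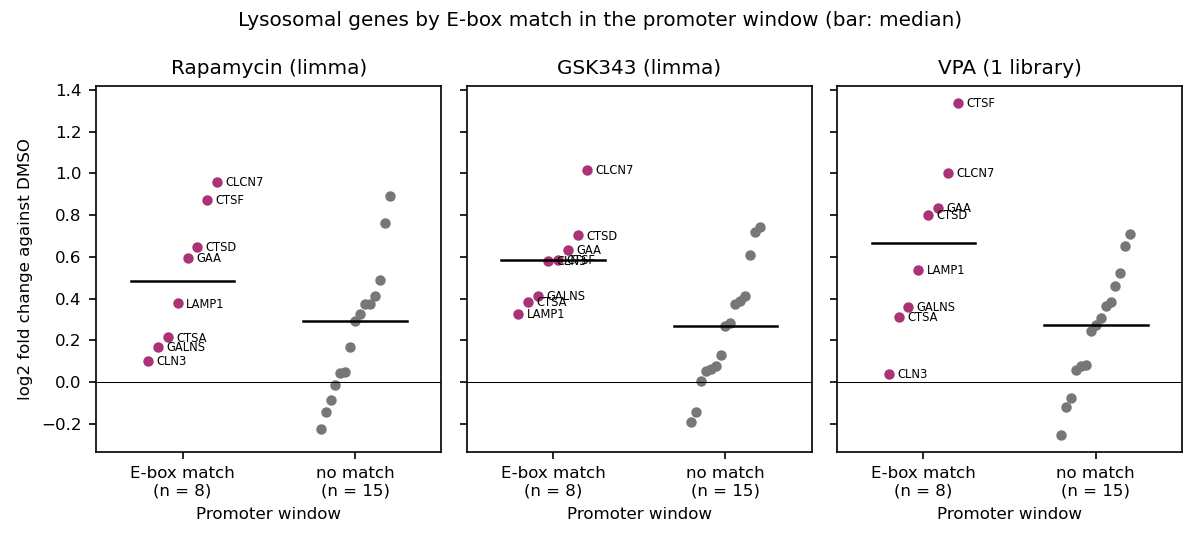
Log2 fold change for lysosomal genes with and without TCACGTG in the promoter window, with a point per gene and bars at the medians, under rapamycin and GSK343 (limma, 2 replicates each) and in the VPA library, on the log2(FPKM + 1) scale. Under rapamycin the 8 genes with it have a median of 0.48 and the 15 without it 0.29, and the points overlap.

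Genes outside the 34 were looked at in lists of related function. Of 21 genes for delivery and assembly of lysosomal proteins, 0 were called in each comparison; under rapamycin 3 were higher in both replicates and 8 lower in both, against 25.5% and 37.1% of all genes tested. Under GSK343 there were 9 and 4, against 34.6% and 26.7%, and under 2-PCPA 1 and 8, against 11.5% and 42.2%. SUMF1, which activates sulfatases, was at 1.03 and GNPTG, a subunit of the enzyme that makes the mannose 6-phosphate tag, at 0.52 under rapamycin, where the sorting receptor SORT1 was at −0.41. Of 31 further lysosomal genes tested, 0 were called; under GSK343 14 were higher in both and 6 lower in both, and under 2-PCPA 2 and 12, against the same shares of all genes. Their median under rapamycin was 0.0069, against 0.28 for the 33 genes.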

How the data were processed

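The authors deposited FPKM values per gene symbol in 2 tables, 1 for each replicate. Per the submitters' processing notes, FastQC, cutadapt and TopHat2 were used with the hg19 build, without stated versions; the sources used here name neither the program that computed FPKM nor its annotation. Per the labels' protocols, the libraries came from poly(A) RNA and the ThruPLEX kit of Rubicon, with no word on read strand. FPKM values hold no counts, so no count test was run. A row named unknown was left out (1 in all), and 0 columns were left unused.

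Groups came from the labels. Values were taken as log2(FPKM + 1), and symbols in both tables that averaged 1 FPKM or more over 8 libraries (DMSO, 2-PCPA, GSK343 and rapamycin, 2 each) were tested, 12603 in all. One limma fit (version 3.58.1, R 4.3.3) held the 4 groups and the replicate number as a block, with an intensity trend in eBayes and Benjamini-Hochberg adjustment over all genes tested at 0.05. The number names the table, and deviations from group means correlated at 0.71 to 0.784 between libraries of the same number over 6 pairs. The tables were made separately, so this correlation cannot tell paired samples from a difference between the tables. The number was used as a block for the table. Single libraries were compared over 12804 genes, those averaging 1 FPKM or more in the replicate 1 table, with no test. Depth relative to DMSO came from ratios of low FPKM values within a table.

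The genes described and the lists of other genes were chosen with earlier results of these data known. Genes given with the value of every library were any called gene, the 6 largest per direction (at most) whose replicates had the same sign, up to 4 per direction for a single library, and 5 genes in every replicated comparison (CTSD, LAMP1, LAMP2, CD63 and PSAP). For lower-ranked genes of single libraries and for 2-PCPA against rapamycin the log2 value alone is given in places. Fits were repeated with other pseudocounts (0.1 and 5), without a filter or with one at 5 FPKM, with median centring or TPM scaling, without the replicate block, on the 2 groups compared alone, without small RNA and clone rows, and without each library in turn.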

Additional observations from a re-analysis of the deposited data

How the results depend on the processing

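In the 4 comparisons, 0 of the 33 genes were called under the settings tried, except in 2-PCPA against rapamycin, where 1 was called with only the 2 groups compared (CTSF) and 1 in a fit without small RNA and clone rows (FUCA1). The number of all genes called moved with the setting, and the cause was not tested. For 2-PCPA against DMSO it was 0 with a pseudocount of 0.1, 1 with a pseudocount of 5, 1 with no filter on low values, 1 with no replicate block, 272 with only the 2 groups compared and 40 without small RNA and clone rows, and it ranged from 2 to 47 with each library left out (47 without 2-PCPA replicate 1). For rapamycin it was 0 with either pseudocount, with no filter, with no replicate block and with only the 2 groups, 4 with a mean of at least 5 FPKM, 5 with median centring and 68 without small RNA and clone rows, with a range from 0 to 42 (42 without DMSO replicate 1). For GSK343 it was 0 with a pseudocount of 0.1, no filter, median centring, no replicate block and only the 2 groups, 1 with a pseudocount of 5, a mean of at least 5 FPKM and TPM scaling, and 47 without small RNA and clone rows, with a range from 0 to 44 (44 without DMSO replicate 1). For 2-PCPA against rapamycin it was 2 with no filter, 32 with a mean of at least 5 FPKM, 22 with median centring, 69 with TPM scaling, 1 with no replicate block, 389 with only the 2 groups and 218 without small RNA and clone rows, with a range from 1 to 49 (49 without 2-PCPA replicate 1). The counts on 1 side in both replicates were recomputed under the scalings after the data were seen. For 2-PCPA 19 of 33 were higher with median centring, against 31% of all genes. With TPM scaling 25 were higher, against 45.7%, and 0 lower, against 17.8%. For GSK343 4 were lower with TPM scaling, against 34.9%. For 2-PCPA against rapamycin 8 were higher with median centring, against 32.3%. With TPM scaling 15 were higher there, against 56.9%, and 7 lower, against 12.6%. At an unadjusted p under 0.05 in limma, the number of listed genes was taken over the settings that kept 2 libraries per group. It was 0 to 11 for 2-PCPA, against 367 to 1342 of all genes, and 3 to 16 for rapamycin, against 370 to 2085. It was 4 to 8 for GSK343, against 170 to 1172, and 3 to 8 for 2-PCPA against rapamycin, against 650 to 3291. The ends of paired ranges need not come from the same setting. The number of genes tested also ran from 8916 to 19591, so these ranges cannot be read as shares. Leaving out the replicate block changed no call among the 33 genes. The median of the 33 genes minus that of all genes kept its sign throughout. For 2-PCPA it was 0.071 with a pseudocount of 5 and 0.011 with no filter, and 0.044 to 0.27 with each library left out. For rapamycin it was 0.26 with a pseudocount of 5, and 0.29 to 0.35. For GSK343 it was 0.15 to 0.50. For 2-PCPA against rapamycin it was −0.27 with no filter, and −0.32 to −0.11.

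For 2-PCPA against DMSO the log2 fold changes that turned sign when 1 library was left out ranged over −0.12 to 0.87 for CLCN7, −0.051 to 0.60 for NPC2, −0.023 to 0.46 for TPP1, −0.10 to 0.45 for CLN3, −0.98 to 0.19 for GAA, −0.60 to 0.083 for HEXA, −0.45 to 0.0047 for LGMN, −0.46 to 0.17 for GUSB, −0.42 to 0.51 for CTSD, −0.32 to 0.33 for LAMP1, −0.38 to 0.13 for CD63, −0.27 to 0.31 for PSAP. For rapamycin against DMSO the log2 fold changes that turned sign when 1 library was left out ranged over −0.35 to 0.060 for GLA, −0.15 to 0.056 for LGMN, −0.050 to 0.021 for GLB1. For GSK343 against DMSO the log2 fold changes that turned sign when 1 library was left out ranged over −0.14 to 0.24 for LAMP2. For 2-PCPA against rapamycin the log2 fold changes that turned sign when 1 library was left out ranged over −0.031 to 0.33 for PPT1, −0.41 to 0.090 for LAMP2, −0.55 to 0.036 for PSAP. Under TPM scaling, values turned sign for 2-PCPA in LAMP2 (0.028), SMPD1 (0.070), HEXA (0.097), LGMN (0.13), GUSB (0.21) and CD63 (0.24), for GSK343 in LAMP2 (−0.027), and for 2-PCPA against rapamycin in LAMP1 (0.070), LAMP2 (0.28) and PSAP (0.19). Under median centring, they turned for 2-PCPA in GUSB (0.057) and CD63 (0.077), and for rapamycin in LGMN (0.0049) and GLB1 (0.036).

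Among single libraries, genes past 1.5-fold lower under BIX-01294 numbered 2 with a pseudocount of 5. They numbered 9 with median centring, against 21.5% of all genes, and 10 with TPM scaling, against 22.9%. Under BRD4770 there was 1 higher and 1 lower with a pseudocount of 5, and 1 lower with a mean of at least 5 FPKM. Under GSK-J4 there were 5 higher and 2 lower with a pseudocount of 0.1, 0 lower with a pseudocount of 5, 2 lower with median centring and 5 lower with TPM scaling. Under SAHA there were 7 higher, against 14.1% of all genes, and 4 lower, against 21.6%, with TPM scaling. Under UNC1215 there were 0 higher with a pseudocount of 5 and 1 with a mean of at least 5 FPKM. For the counts here without a share of all genes, that share was not computed, so they have no background.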
